A study of Mus musculus with 12 samples.

Results

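The comparison set newborn mouse ovaries labelled Foxl2 KO against wild-type ovaries of the same age, postnatal day 3 (P3). It used 4 expression arrays, 2 per genotype, and every gene that could be named from a probe set matching 1 gene: 18194 genes, of 21579 measured anywhere in the series. Each gene was read from the probe set with the highest mean over the 4 arrays. The whole series holds 12 arrays, the other 8 being adult testes, adult wild-type ovaries and adult ovaries from Foxl2 flox/flox x CreEBD animals at 8 weeks. Per the labels, each P3 array carried RNA from more than 10 females pooled together, the animals were not perfused, and 1 µg of RNA was labelled. The labels cite a CodeLink protocol for that labelling, while the probe set names of the table are those of an Affymetrix design. The labels name neither the strain, the zygosity nor the structure of the KO allele. The wild-type animals carry no named allele or agent.

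Foxl2 is a forkhead transcription factor of granulosa cells, the somatic cells that surround and nourish the oocyte. In mice the first follicles assemble around birth, and Foxl2 is known for its part in the maturation of the granulosa cells in these follicles and for holding off a Sertoli cell programme in the adult ovary. An ovary at this age also holds oocytes in small follicles, stroma, vessels and a surface epithelium. Because whole ovaries were profiled, fewer cells of a type and less RNA per cell cannot be told apart in any result here.

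Values are MAS5 signals, a linear measure of probe set brightness that the authors scaled to the same trimmed mean, 500.003 on every array. Fold changes are differences of mean log2(signal + 16), KO minus wild-type, ± SE from limma. This scale understates the change of dim genes. All p-values are limma's, two-sided and adjusted by the Benjamini-Hochberg method over the 18194 genes, with 0.05 as the threshold. They measure only the spread between these pools.

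Over all genes, the arrays resembled each other in signal level. Ovary markers were bright on all of them: the granulosa receptor gene Amhr2 read at least 10934 and the oocyte factor gene Figla at least 7416. Over genes, the log2 signals correlated at 0.969 between the wild-type pools, at 0.975 between the KO pools and at 0.964 to 0.967 between genotypes. At least 2-fold differences stood in 1518 genes between the wild-type pools, in 1313 between the KO pools and in 1668 to 1791 between genotypes. The ratio of the 3′ to the 5′ control probe set of beta-actin was 15.6 and 16.2 in wild-type and 19.5 and 19.3 in KO. This beta-actin ratio was higher in both KO pools than in both wild-type pools. The Gapdh ratio was 16.3 and 23.2 against 17.4 and 30.4, so it overlapped between genotypes. The part of these ratios in the results was not tested.

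In the KO ovaries 25 genes were higher and 34 lower past the threshold, or 59 of 18194 (0.324%). The share was 0.137% for rises and 0.187% for falls. The median fold change of all genes was -0.0051 on the log2 scale, and 1734 genes had an unadjusted p under 0.05. In every one of the 59 called genes the 2 KO signals lay outside the range of the 2 wild-type signals, a pattern that 19.3% of all genes showed upward and 19.7% downward. The smallest change among the called genes was 1.95-fold. Passing the threshold favours genes whose pools of a genotype lie close together, so such closeness is only described below. The falls held the steroid enzyme genes Hsd3b1 and Hsd17b1, the nuclear receptor gene Nr5a2 and oocyte genes such as Oosp1 and Zp1. The rises held Nr0b1, the Sertoli cell gene Cst9 and the sodium-calcium exchanger gene Slc8a3.

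Leaving out 1 of the 4 arrays left 1 genotype with a single array, assumed to vary like the other, and 1 residual degree of freedom in place of 2. Without KO pool 1 limma called no gene at the threshold, with 1282 genes at an unadjusted p under 0.05, and without KO pool 2 it again called none, with 1119. Without wild-type pool 1 there were 22 calls, 16 of them among the 59. Without wild-type pool 2 there were 5, all among the 59. Because their groups did not overlap, leaving out 1 array could not change the sign in any of the 59 genes. The change of Hsd3b1, for example, ran from -5.14 to -4.80. A test without the dependence of the variance on brightness also called 0 genes, with 1736 at an unadjusted p under 0.05. Averaging all probe sets of a gene left 22 calls, all among the 59, and Foxl2 was then not among them. Testing only the 13508 genes with a signal of at least 100 on 2 or more arrays gave 188 calls, which held 58 of the 59.

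**Figure D1:**
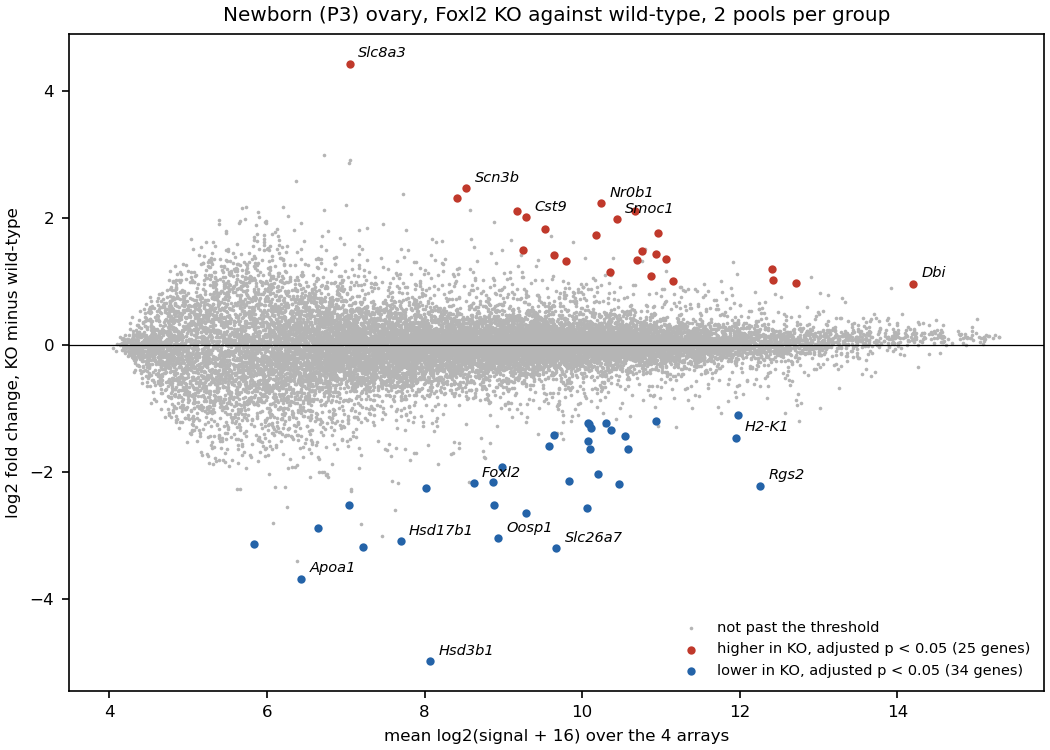
Log2 fold change, KO minus wild-type, against the mean log2(signal + 16) of the 4 arrays, with a point for each of the 18194 genes. The 25 genes higher in KO are red and the 34 lower are blue, and Slc8a3 and Hsd3b1 stand at the upper and lower ends.

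Foxl2 itself was the check of the labels. Its brighter probe set read 814 and 830 in wild-type RNA and 186 and 154 in KO RNA. The KO pools were the low ones, with no overlap, and the fold change was -2.18 ± 0.21 (adjusted p = 0.0238). A second, dim probe set read 11.5 and 12.3 in wild-type against 7.2 and 4.3 in KO. Where either probe set lies relative to the deleted part of the gene is not stated in the labels, so the signal left in the KO pools cannot be read as intact transcript. Foxl2os, the antisense transcript beside Foxl2, read 1771 and 1851 against 1579 and 1033, a change of -0.50 ± 0.21 (adjusted p = 0.539). Of the 20 measured genes nearest to Foxl2 on the chromosome, 10 on each side, none passed, against 0.324% of all genes. Their median change was 0.012. Clstn2, a synaptic cadherin-family gene and one of these neighbours, had the largest change among them, with signals of 443 and 437 against 102 and 184 (-1.57 ± 0.32, adjusted p = 0.14).

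The deepest fall was in steroid synthesis. Hsd3b1, which converts pregnenolone to progesterone, read 1324 and 1679 in wild-type and 33.1 and 31 in KO. Its fold change of -4.97 ± 0.25 (adjusted p = 0.00653) was the largest of all genes in either direction. Hsd17b1, which makes estradiol from estrone in granulosa cells, read 530 and 655 against 50.3 and 60.2, a change of -3.09 ± 0.28 (adjusted p = 0.0208). In both genes the KO signals lay far under the wild-type ones and close to each other. The steroidogenic list includes Hsd3b1 but not Hsd17b1. Of its 7 measured genes 1 fell and none rose, against 0.187% and 0.137% of all genes. Its median was -0.086 against -0.0051 for all genes. Star, which carries cholesterol into the mitochondrion, and Cyp11a1, which cleaves its side chain, had changes of -0.29 ± 0.23 and -0.16 ± 0.34 and did not pass. Cyp17a1, the androgen-making enzyme of theca cells, read 48.8 and 193 against 297 and 220 (1.22 ± 0.56, adjusted p = 0.594). Of the 7 measured adrenal genes none passed, with a median of 0.011. Cyp21a1, the 21-hydroxylase of the adrenal cortex, was the member with the largest change, 1.21 ± 0.28 (adjusted p = 0.192).

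Of the 23 measured members of the granulosa cell list, 19 did not pass. The list had 3 falls and 1 rise, against 0.187% and 0.137% of all genes. Its median was -0.23, and 11 members were lower and 5 higher with no overlap between genotypes, against 19.7% and 19.3% of all genes. The falls were Foxl2, which is the targeted gene, Hsd17b1 and Nr5a2, a nuclear receptor of granulosa cells needed for ovulation. Nr5a2 read 561 and 534 in the wild-type pools against 87.8 and 120 in the KO pools (-2.24 ± 0.26, adjusted p = 0.0419). The other Nr5a2 probe sets that reached a signal of 100 were lower too, one with a change of -2.18 and the other of -0.79. The member that rose was Nr0b1, an orphan receptor that represses steroid gene transcription and is also made in Sertoli cells and the adrenal cortex. It read 524 and 565 against 2474 and 2737 (2.23 ± 0.14, adjusted p = 0.00865), with both KO pools far above both wild-type pools.

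Several known granulosa genes came close to the threshold without passing it. Inha, the alpha subunit of inhibin, read 4097 and 3516 against 1914 and 1880 (-0.995 ± 0.128, adjusted p = 0.0519). Fst, encoding the activin-binding protein follistatin, read 1199 and 1030 against 467 and 360 (-1.40 ± 0.19, adjusted p = 0.0641). Rspo1, a secreted enhancer of Wnt signalling that promotes ovary development, read 2978 and 1985 against 5975 and 6111 (1.31 ± 0.20, adjusted p = 0.0744). In each of these genes the genotypes did not overlap, as in 38.9% of all genes. Runx1, a transcription factor of pre-granulosa cells, read 342 and 237 against 749 and 924 on its brightest probe set (1.49 ± 0.24, adjusted p = 0.0853). Its 5 other probe sets had changes between -0.27 and 0.44, so the Runx1 value depends on the probe set. Other granulosa genes had nearly the same signals in both genotypes: Kitl, the ligand that granulosa cells present to the oocyte's Kit receptor, had a change of -0.14 ± 0.16, and Wnt4, an ovary-promoting Wnt, of 0.19 ± 0.24. The hormone receptor genes Fshr and Esr2 were dim. Fshr, the follicle-stimulating hormone receptor, read at most 152 on any array, and Esr2, an estrogen receptor, at most 56.2.

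The Sertoli cell list had 16 measured members, of which 1 rose and none fell, against 0.137% and 0.187% of all genes. Its median was -0.025, with 6 members higher and 4 lower without overlap, against 19.3% and 19.7% of all genes. The member that rose was Cst9, a cystatin-family protease inhibitor gene of fetal Sertoli cells, with 317 and 276 in wild-type against 1138 and 1356 in KO (2.01 ± 0.18, adjusted p = 0.0208). Dmrt1, a transcription factor that maintains Sertoli cell identity, read 66.2 and 13.2 against 398 and 289. Its change of 2.86 ± 0.53 was the largest of the list and did not pass (adjusted p = 0.117); on the log2 scale the wild-type pools differed more from each other than the KO pools did. Gata1, which marks Sertoli cells in the postnatal testis, read 144 and 193 against 641 and 946 (2.12 ± 0.28, adjusted p = 0.0537), and Dhh, a Sertoli cell hedgehog ligand, 514 and 546 against 1134 and 1076 (1.04 ± 0.15, adjusted p = 0.0688).

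Sox9, which starts Sertoli cell differentiation, read 156 and 54 in wild-type against 188 and 177 in KO. The spread of the wild-type pools was wider than the step between the genotype means, and the change was 0.86 ± 0.47 (adjusted p = 0.672). The other Sox9 probe sets, with no signal above 82.4, had changes of -0.92 and 0.0058. Amh, the hormone of Sertoli cells and of growing follicles, read lower, at 304 and 141 against 59.8 and 21 (-2.08 ± 0.52, adjusted p = 0.225). Sox8, Defb19, Aard and Nxf3, other genes of the list, had changes between -0.21 and 0.34. Of the 11 measured gonad transcription factors, none passed, with a median of 0.13. Their largest change was that of Emx2, a homeobox gene of the early gonad (0.70 ± 0.15, adjusted p = 0.143), and the next that of Nr5a1, the steroidogenic factor (0.54 ± 0.14, adjusted p = 0.231).

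**Figure D2:**
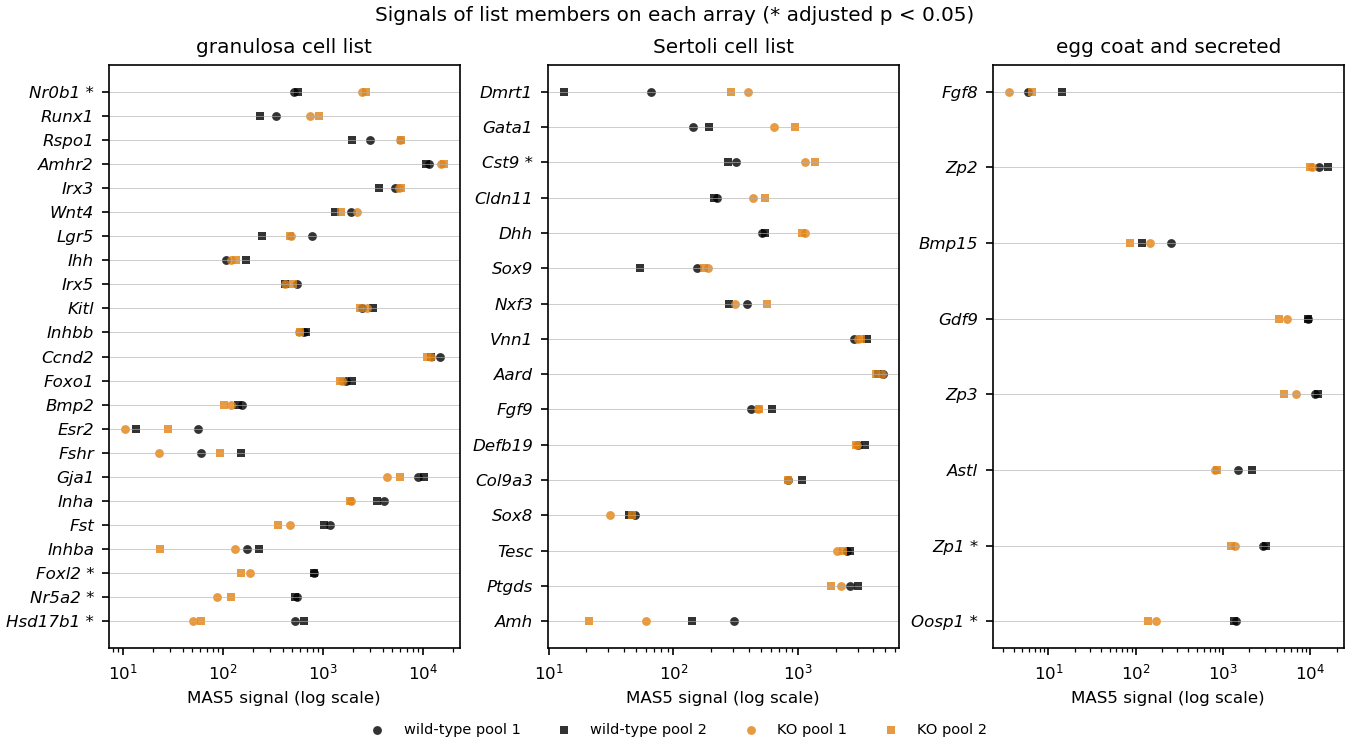
MAS5 signal on a log axis for every measured member of the granulosa cell, Sertoli cell and egg coat lists, with a symbol for each of the 4 arrays (black, wild-type; orange, KO) and an asterisk on names past the threshold. Members run from the highest fold change at the top to the lowest at the bottom of each panel, and Cst9 and Nr0b1 separate toward higher KO signals while Hsd17b1, Nr5a2, Foxl2, Zp1 and Oosp1 separate toward lower ones.

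Genes of oocyte products were among the falls. All 8 members of the list of egg coat and secreted oocyte proteins had a negative change. Of these 2 fell and none rose, against 0.187% and 0.137% of all genes. The list median was -0.97 against -0.0051 for all genes. In 6 members the KO signals were lower without overlap, against 19.7% of all genes. Oosp1, encoding a protein secreted by the oocyte, read 1420 and 1341 in wild-type and 172 and 138 in KO (-3.04 ± 0.20, adjusted p = 0.00865). Zp1, which cross-links the filaments of the zona pellucida, read 2838 and 3075 against 1356 and 1221 (-1.19 ± 0.13, adjusted p = 0.0369). For both genes the KO pools were the low ones, and the pools of each genotype lay close together. Zp3, another zona protein, read 11398 and 12081 against 6878 and 5024 (-0.995 ± 0.168, adjusted p = 0.0937). Gdf9, the growth factor by which oocytes act on granulosa cells, read 9276 and 9464 against 5383 and 4391 (-0.94 ± 0.14, adjusted p = 0.067). Zp2, the remaining zona protein, read 12400 and 15818 against 10455 and 9979 (-0.45 ± 0.15, adjusted p = 0.37).

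Of 18 measured maternal-effect genes, whose products the egg stores for the embryo, 1 fell and none rose, against 0.187% and 0.137% of all genes. The list median was -0.69, and 15 members were lower and none higher without overlap, against 19.7% and 19.3% of all genes. Bcl2l10, a Bcl2-family survival gene strongly made in oocytes, read 1858 and 1747 against 732 and 527 (-1.51 ± 0.19, adjusted p = 0.0485). Zar1, needed for the egg-to-embryo transition, read 4996 and 4996 against 2925 and 1924 (-1.07 ± 0.20, adjusted p = 0.118). Among the brightest members, Nlrp5, encoding the MATER protein, had a change of 0.038 ± 0.143 and Dppa3, encoding Stella, of -0.12 ± 0.12. Omt2a, another oocyte message, had the largest change of the list, -2.60 ± 0.53, and did not pass (adjusted p = 0.14), its KO pools reading 120 and 30.9.

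Of the 11 measured transcription factors of the oocyte none passed, and their median was -0.16. Figla, which switches on the zona genes, read 8008 and 9080 against 7416 and 8413 (-0.11 ± 0.13), Nobox 7910 and 9571 against 7385 and 8227 (-0.16 ± 0.14), and Lhx8 had a change of -0.22 ± 0.12. Obox5, an oocyte homeobox gene, had the largest change, 367 and 451 against 105 and 122 (-1.71 ± 0.27, adjusted p = 0.0799). Among 13 measured general germ cell genes none passed, with a median of -0.040. Ddx4, the germ cell RNA helicase, read 3809 and 4235 against 3239 and 3671 (-0.22 ± 0.13, adjusted p = 0.695). The largest change there was that of Tex14, a component of germ cell bridges (-1.10 ± 0.19, adjusted p = 0.0923). Of 18 meiotic prophase genes none passed (median 0.12), the largest change being that of the cohesin gene Rec8 (1.11 ± 0.28, adjusted p = 0.227), and none of the 10 spermatid genes passed or reached a signal of 200 on average in either genotype.

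Other falls were in oocyte gene families that no list held. The Fbxw genes numbered 13 to 28 are F-box genes, several of which are made in oocytes. They were picked as a family after their values were seen. Of 10 measured, 3 fell and none rose, against 0.187% and 0.137% of all genes, and the median was -0.93. Without overlap 9 were lower, against 19.7% of all genes. Fbxw13 read 222 and 296 against 19.1 and 23.3 (-2.87 ± 0.35, adjusted p = 0.0439). Fbxw21 had a change of -1.92 ± 0.20 (adjusted p = 0.0325) and Fbxw18 of -1.22 ± 0.14 (adjusted p = 0.0396). Members of this family are close in sequence, so their probe sets may share transcripts. Pramel29, of a large family of germ cell genes, read 376 and 494 against 36.8 and 30.3 (-3.18 ± 0.32, adjusted p = 0.0275). Pla2g4c, a cytosolic phospholipase gene, read 1359 and 1743 against 252 and 216 (-2.64 ± 0.20, adjusted p = 0.0124), while its other probe set did not follow this direction.

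The remaining falls covered lipid, prostaglandin, transport and signalling genes. Rgs2, a brake on G-protein signalling, was among the brightest of the called genes, with 10286 and 10784 in wild-type and 2261 and 2256 in KO (-2.21 ± 0.11, adjusted p = 0.00653). Its 3 other probe sets were lower in KO as well. Ptges, which makes prostaglandin E2, read 1261 and 977 against 188 and 174 (-2.52 ± 0.21, adjusted p = 0.0179). Ephx2, which hydrolyses fatty acid epoxides, read 1875 and 1933 against 390 and 454 (-2.14 ± 0.15, adjusted p = 0.0104). Apoa1, the main protein of high-density lipoprotein, read 387 and 222 against 6.7 and 9.8 (-3.68 ± 0.40, adjusted p = 0.0369), with its 3 other probe sets in the same direction. Among membrane transporters, Slc26a7, an anion exchanger, read 2819 and 2131 against 258 and 250 (-3.19 ± 0.18, adjusted p = 0.00865). Slc18a2, the vesicular monoamine transporter, read 322 and 274 against 38.6 and 39 (-2.52 ± 0.31, adjusted p = 0.0477). In every one of these genes the 2 KO pools differed less from each other than from either wild-type pool, which passing the threshold favours.

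Further falls were in genes of secreted or surface proteins and in regulators. Colec11, a collectin, had a change of -2.56 ± 0.17, Cnmd, the cartilage glycoprotein chondromodulin, of -2.03 ± 0.16, and Cxcl12, a chemokine, of -1.64 ± 0.15. Plxnc1, a semaphorin receptor, had a change of -2.19 ± 0.15, with 1 of its 2 other bright probe sets in the same direction, and Tenm4, a teneurin, of -1.59 ± 0.19. Tfap2e, an AP-2 transcription factor, read 151 and 153 in wild-type against 3.8 and 2.7 in KO (-3.13 ± 0.35), and Miox, an inositol oxygenase, 976 and 959 against 229 and 182 (-2.16 ± 0.20). H2-K1, a classical MHC class I gene, read 7312 and 5901 against 2519 and 2253 (-1.46 ± 0.15, adjusted p = 0.0275), with its 3 other probe sets lower too. Such genes differ between mouse strains, and the strains of the pools are not given. The falls not described so far, Spin2c, Spsb1, Angptl6, Stox2, Arhgap31, Pdlim1, Elobl and the predicted gene E330034G19Rik, had changes between -1.64 and -1.10. The other bright probe set of Spsb1 did not follow its direction, and of the 2 of Stox2 1 did.

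**Figure D3:**
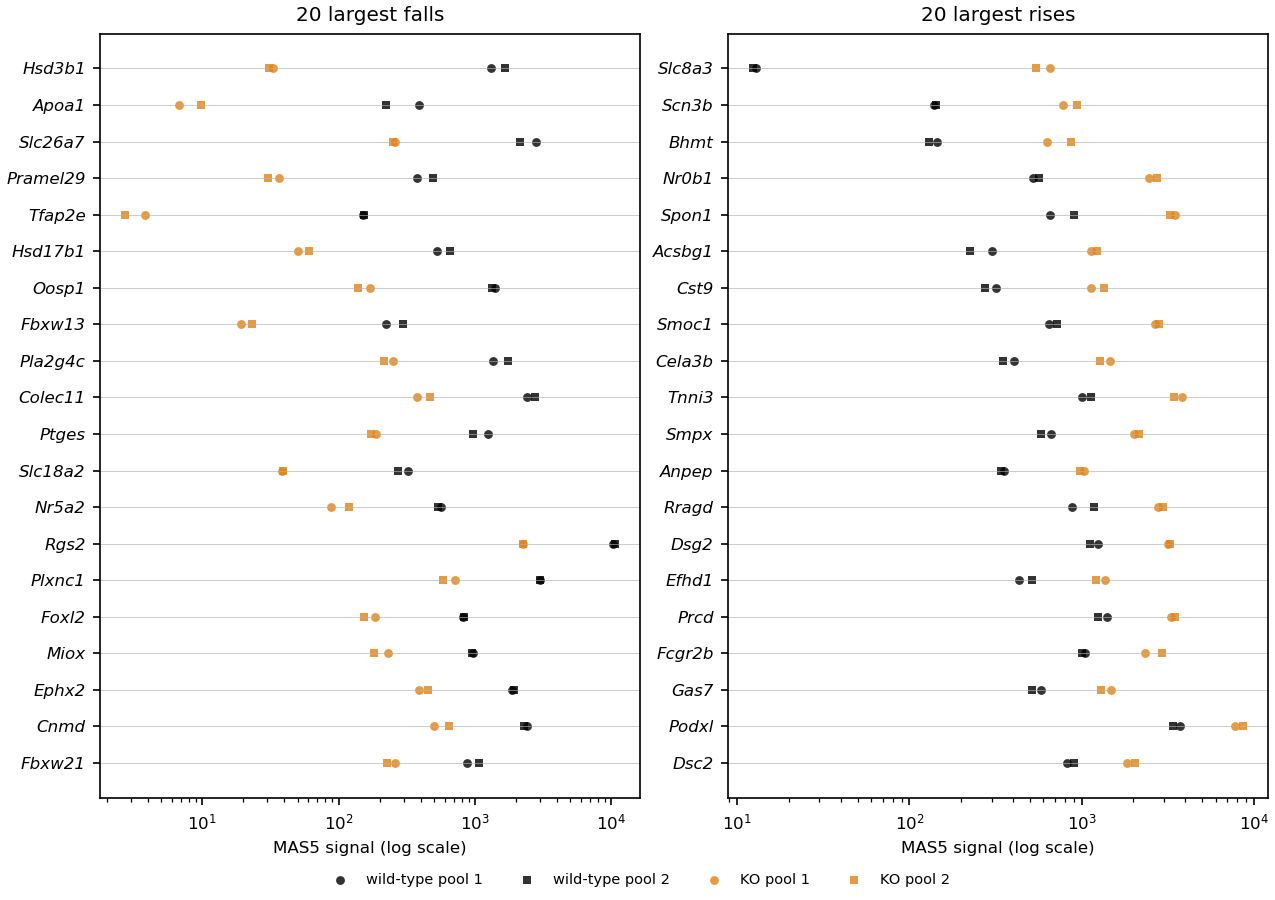
MAS5 signal on a log axis of the 20 largest falls (left) and the 20 largest rises (right) among genes past the threshold, with a symbol for each of the 4 arrays (black, wild-type; orange, KO). Signals run from 3.8 and 2.7 for Tfap2e in KO to 10286 and 10784 for Rgs2 in wild-type. Groups that do not overlap were a condition for being shown, which all 59 called genes met.

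Among the rises, Slc8a3, a plasma membrane sodium-calcium exchanger, had the largest change. Its brighter probe set read 12.9 and 12.3 in wild-type against 658 and 544 in KO (4.42 ± 0.31, adjusted p = 0.0104). The wild-type signals were near the bottom of the scale. A second Slc8a3 probe set read 12.7 and 91.7 against 93.3 and 29.6, so only one of the pair showed the step. Scn3b, a sodium channel beta subunit, read 139 and 144 against 776 and 941 (2.47 ± 0.22, adjusted p = 0.0193). Bhmt, which remethylates homocysteine, read 144 and 129 against 633 and 869 (2.31 ± 0.25, adjusted p = 0.0369).

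Spon1, the adhesion protein F-spondin, read 656 and 909 against 3471 and 3284 (2.11 ± 0.18, adjusted p = 0.0179), with both bright further probe sets in the same direction. Smoc1, a calcium-binding matrix protein that tempers BMP signalling, read 649 and 717 against 2674 and 2802 (1.98 ± 0.13, adjusted p = 0.00865). Smoc1 was high in both KO pools, which lay close together. Among genes of cell surface proteins, Podxl, the sialomucin podocalyxin, rose by 1.196 ± 0.123, Anpep, aminopeptidase N, by 1.49 ± 0.16, and the desmosomal cadherin genes Dsg2 and Dsc2 by 1.44 ± 0.12 and 1.15 ± 0.14. Of 4 other bright Dsg2 probe sets, 2 moved the same way. Fcgr2b, an inhibitory Fc receptor, rose by 1.34 ± 0.15, with 3 of 3 other bright probe sets in the same direction.

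The rises also included enzyme genes. Acsbg1, an acyl-CoA synthetase, read 303 and 226 against 1137 and 1221 (2.11 ± 0.20, adjusted p = 0.0238). Phgdh, the entry enzyme of serine synthesis, rose by 0.97 ± 0.11, Alad, of heme synthesis, by 1.03 ± 0.12, and Selenbp1, a selenium-binding protein, by 1.01 ± 0.11. Dbi, an acyl-CoA-binding protein, was the brightest of the called genes, at 13203 and 13754 against 25907 and 26772 (0.97 ± 0.12, adjusted p = 0.0439). Rragd, a GTPase of nutrient sensing, rose by 1.48 ± 0.17. The remaining rises, Efhd1, Prcd, Gas7 and Tmem184a, lay between 1.09 and 1.41.

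Some rises carry names of other organs. Cela3b, a pancreatic elastase, read 403 and 351 against 1458 and 1281 (1.82 ± 0.17, adjusted p = 0.0215), with its 3 other bright probe sets in the same direction. Of 7 measured pancreas genes, listed after the values were seen, Cela3b alone passed and the median was -0.19. Tnni3, cardiac troponin I, read 1005 and 1130 against 3841 and 3440 (1.76 ± 0.13, adjusted p = 0.0124). Of 8 heart genes, also listed after the values were seen, Tnni3 alone passed and the median was 0.10. Smpx, a small muscle protein, read 667 and 578 against 2028 and 2145 (1.72 ± 0.14, adjusted p = 0.0179), while none of the 9 skeletal muscle markers passed (median 0.089). The largest change among those markers was that of Myh8, the perinatal myosin, with 128 and 308 against 706 and 641 (1.67 ± 0.39, adjusted p = 0.188).

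The promoters of 4 called genes are shown because they mark the ends of the scale and the oocyte and forkhead cases. They come from RefSeq (GRCm38.p6) and run from 250 bases before to 50 after the gene's start, read 5′ to 3′ on the gene's strand. Hsd3b1 is on the minus strand at chr3:98859745-98860044, Rgs2 on the minus strand at chr1:144004100-144004399, Oosp1 on the minus strand at chr19:11691002-11691301 and Slc8a3 on the minus strand at chr12:81333131-81333430. Capitals mark exact matches, on either strand, to 5 motifs picked after the values were seen: the forkhead words TGTTTAC and TGTTGAC, the SOX word AACAAT, the E-box CAGGTG and the steroidogenic factor word CAAGGTCA.
Hsd3b1: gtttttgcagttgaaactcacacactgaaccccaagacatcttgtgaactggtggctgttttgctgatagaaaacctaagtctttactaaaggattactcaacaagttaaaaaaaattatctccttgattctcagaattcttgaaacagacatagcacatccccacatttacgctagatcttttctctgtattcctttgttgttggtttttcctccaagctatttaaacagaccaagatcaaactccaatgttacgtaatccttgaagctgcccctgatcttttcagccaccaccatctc
Rgs2: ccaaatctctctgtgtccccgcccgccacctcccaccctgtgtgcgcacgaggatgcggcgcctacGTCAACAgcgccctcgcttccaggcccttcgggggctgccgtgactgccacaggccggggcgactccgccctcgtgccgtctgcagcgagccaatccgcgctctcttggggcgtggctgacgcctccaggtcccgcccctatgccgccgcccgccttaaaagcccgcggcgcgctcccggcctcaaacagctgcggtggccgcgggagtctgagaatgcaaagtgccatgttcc
Oosp1: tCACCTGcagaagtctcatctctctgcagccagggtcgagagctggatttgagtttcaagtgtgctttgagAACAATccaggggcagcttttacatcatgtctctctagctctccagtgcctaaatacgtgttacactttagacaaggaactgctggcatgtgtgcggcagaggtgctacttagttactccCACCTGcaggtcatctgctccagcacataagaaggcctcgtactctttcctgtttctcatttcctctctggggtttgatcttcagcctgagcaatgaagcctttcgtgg
Slc8a3: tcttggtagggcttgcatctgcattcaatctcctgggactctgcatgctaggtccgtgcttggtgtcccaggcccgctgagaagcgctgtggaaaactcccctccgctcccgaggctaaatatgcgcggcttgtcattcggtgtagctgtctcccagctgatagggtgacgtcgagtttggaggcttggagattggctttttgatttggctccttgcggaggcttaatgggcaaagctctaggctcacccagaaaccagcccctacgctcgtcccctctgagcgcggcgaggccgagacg
Rgs2 holds 1 match, to the second forkhead word, and Oosp1 holds 3, to the SOX word and the E-box, while Hsd3b1 and Slc8a3 hold none. The table had 34 windows for 27 of the genes that fell and 21 windows for 18 of those that rose. TGTTTAC stood in none of these windows and in 2.98% of the 18110 windows of all measured genes. TGTTGAC stood in 3 windows of the falls, those of Rgs2 and H2-K1, in none of the rises and in 1.97% of all. AACAAT stood in 3 and 1 windows (7.29% of all), CAGGTG in 6 and 4 (20% of all) and CAAGGTCA in 0 and 2 (1.31% of all). Some genes have several start sites whose windows overlap, and a match is a description of letters only.

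The signalling lists held no gene past the threshold. The activin and follistatin pathway had 14 measured genes, sharing Fst, Inha, Inhba and Inhbb with the granulosa list, and a median of -0.27. Of the 14, 8 were lower and 1 higher without overlap, against 19.7% and 19.3% of all genes. The largest change was in Chrdl1, a BMP antagonist, with 190 and 194 against 31.1 and 79.3 (-1.63 ± 0.42, adjusted p = 0.245). Next came Inhba, the activin beta-A subunit, with 177 and 232 against 133 and 23.7 (-1.51 ± 0.63, adjusted p = 0.527), where the KO pools differed more from each other than the wild-type pools did. Smad3, which carries the activin signal to the nucleus, read 7113 and 6817 against 3545 and 4237 (-0.84 ± 0.13, adjusted p = 0.0794). In the BMP and AMH pathway (18 genes, median -0.029) the largest changes were those of Amh and of Smad9, a BMP-responsive Smad. Smad9 changed by 1.28 ± 0.36 (adjusted p = 0.29) with dim signals, 9.5 and 4.7 against 40.2 and 39.4.

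The Wnt list (20 genes) had a median of 0.14. In it 8 members were higher and 4 lower without overlap, against 19.3% and 19.7% of all genes. Wif1, a secreted Wnt inhibitor, read 10.7 and 18.2 against 114 and 80.9 (1.89 ± 0.38, adjusted p = 0.135), and Rspo1 came next. In the Notch list (15 genes, median -0.079) the largest changes were in the target genes Hes5 and Hey2. Hes5 changed by 1.02 ± 0.59 (adjusted p = 0.689), with signals of at most 115.4, and Hey2 by -0.69 ± 0.20 (adjusted p = 0.315). Cell cycle genes (19, median 0.020) were led by the inhibitors Cdkn1b, at -0.77 ± 0.24 (adjusted p = 0.343), and Cdkn1a, at 0.52 ± 0.23 (adjusted p = 0.565). Basement membrane and collagen genes (16, median -0.049) were led by Nid2, a nidogen (-0.70 ± 0.17, adjusted p = 0.225), and Lama1, a laminin chain (-0.66 ± 0.13, adjusted p = 0.134). Of 14 junction genes (median -0.19), Cldn11, the claudin of the Sertoli cell barrier, read 222 and 211 against 436 and 545 (1.11 ± 0.23, adjusted p = 0.14). Gja1, the connexin that couples granulosa cells, read 9056 and 10217 against 4423 and 5902 (-0.91 ± 0.17, adjusted p = 0.111).

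Markers of other cells that a dissected ovary can carry also gave no call. The adipocyte list (6 genes) had the highest median of all lists, 0.81. In it 4 members were higher and none lower without overlap, against 19.3% and 19.7% of all genes. The summed signal of the list ran from 621 to 1392 in wild-type and from 1478 to 2650 in KO. Adipoq, encoding adiponectin, read 35.1 and 50.9 against 221 and 159 (1.80 ± 0.36, adjusted p = 0.132), and Fabp4, a fatty acid carrier, 332 and 554 against 1433 and 744 (1.24 ± 0.36, adjusted p = 0.317). The endothelial list (10 genes) had 5 members lower and none higher without overlap, against 19.7% and 19.3% of all genes. It had a median of -0.55 and summed signals of 3100 to 3732 against 2046 to 3030. Its largest changes were those of Pecam1 (-1.35 ± 0.37, adjusted p = 0.273) and Emcn (-1.11 ± 0.31, adjusted p = 0.292), both vessel surface proteins. Pecam1 was dim, at 66.3 and 63 in wild-type against 11.3 and 20.9 in KO. The part of adipose and vessel RNA in the called genes was not tested.

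In the theca and stroma list (9 genes, median -0.33) 5 were lower and none higher without overlap, against 19.7% and 19.3% of all genes. The medians of the other marker lists were -0.0024 for leukocytes (12 genes), -0.33 for erythrocytes (6), 0.028 for smooth muscle (8), 0.15 for the surface epithelium (11), 0.20 for the oviduct and Mullerian duct (10), 0.20 for kidney and mesonephros (6) and -0.24 for immediate-early genes (12). Y-linked genes (5) had a median of -0.27 and read at most 130, in pools labelled as females. None of these lists had a member past the threshold. Among leukocyte genes the largest change was in Itgam, an integrin (-1.40 ± 0.43, adjusted p = 0.343), with signals of at most 71.7. In the erythrocyte list it was that of Hemgn (1.07 ± 0.54, adjusted p = 0.642), with signals of at most 75.1. In theca and stroma it was that of the receptor gene Pdgfra (-0.70 ± 0.22, adjusted p = 0.357). For smooth muscle it was that of the actin gene Actg2 (-0.64 ± 0.21, adjusted p = 0.389), for the surface epithelium that of Aldh1a2, a retinoic acid enzyme (0.83 ± 0.11, adjusted p = 0.0624), and for the oviduct and Mullerian duct that of the homeobox gene Msx2 (-0.81 ± 0.35, adjusted p = 0.564). For kidney it was that of Umod (0.46 ± 0.34, adjusted p = 0.772), for immediate-early genes that of the phosphatase gene Dusp1 (-0.70 ± 0.42, adjusted p = 0.705) and for Y-linked genes that of Eif2s3y, with signals of at most 22.5 (-1.002 ± 0.354, adjusted p = 0.425). Of all 59 called genes, 9 were on any of the 30 lists, and 25 lists had no called member. Calls made up 0.324% of all genes, so the absence of a call in a short list says little about it.

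**Figure D4:**
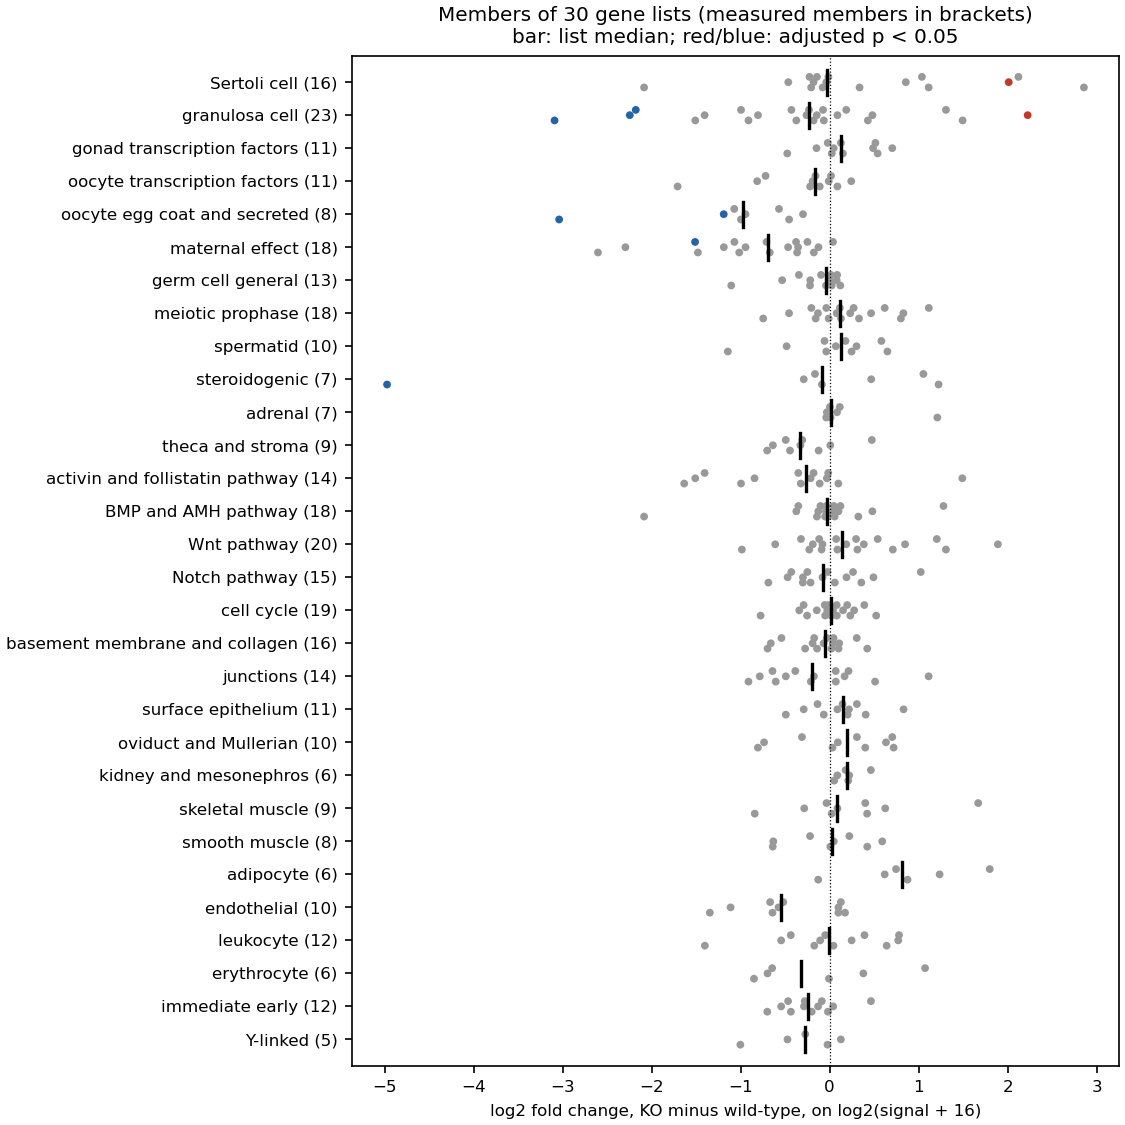
Log2 fold change, KO minus wild-type, of every measured member of the 30 gene lists, with a black bar at each list's median; red and blue points passed the threshold and grey ones did not. The egg coat (-0.97) and maternal-effect (-0.69) medians lie to the left of 0, the adipocyte median (0.81) to the right, and coloured points occur in 5 lists.

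The same genes can be set beside the adult ovaries, where the Foxl2 flox/flox x CreEBD mutants (3 arrays) were compared with wild-type (2 arrays) on another array design. That table was normalized separately by RMA, so no value was tested across the ages. In adults 9.55% of 19938 genes were higher and 6.66% lower in the mutant at the same threshold. Of the 25 newborn rises, all measured in adults, 12 were also higher past the threshold, 12 did not pass and 1 was lower. Of the 34 newborn falls 32 were measured, and 12 were also lower past the threshold, 20 did not pass and none was higher. These 24 genes make up 48% of the measured rises and 37.5% of the measured falls, and 0.781% of the 3072 adult calls measured at P3.

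The genes called in both included the regulators and steroid enzymes. Cst9 was 2.01 ± 0.18 higher in the newborn and 5.36 ± 0.15 higher in the adult mutant, and Nr0b1 2.23 ± 0.14 and 4.19 ± 0.45 higher. Smpx was higher by 1.72 and 3.04, and Gas7 by 1.31 and 2.49. Among the falls, Hsd17b1 changed by -3.09 and -3.46, Nr5a2 by -2.24 and -3.74, Slc18a2 by -2.52 and -4.14, Ephx2 by -2.14 and -3.76 and Ptges by -2.52 and -2.40. Hsd3b1 changed by -4.97 in the newborn and by -1.41 ± 0.24 in the adult. Slc8a3, the largest newborn rise, had an adult change of -0.12 (adjusted p = 0.603).

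Among oocyte genes that fell in the newborn and were measured in the adult, Oosp1, Zp1, Bcl2l10 and the 3 called Fbxw genes were not called there. Zp1 changed by 0.20 (adjusted p = 0.831) and Bcl2l10 by 0.54 (adjusted p = 0.538), and the 3 called Fbxw genes by 0.21 to 0.95. Slc26a7 (0.45), Rgs2 (0.62) and Plxnc1 (0.79), called falls of the newborn, likewise did not pass in adults. Some Sertoli cell genes were called in the adult and not in the newborn. Sox9 changed by 3.68 ± 0.14 in the adult mutant, Aard by 5.02, Nxf3 by 5.02, Defb19 by 3.45 and Sox8 by 2.81, each past the adult threshold. Fst (-3.49 ± 0.16), Inhbb (-1.48) and Foxo1 (-2.14) were granulosa genes called lower in the adult and not in the newborn. Whether these changes differ between the ages was not tested.

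**Figure D5:**
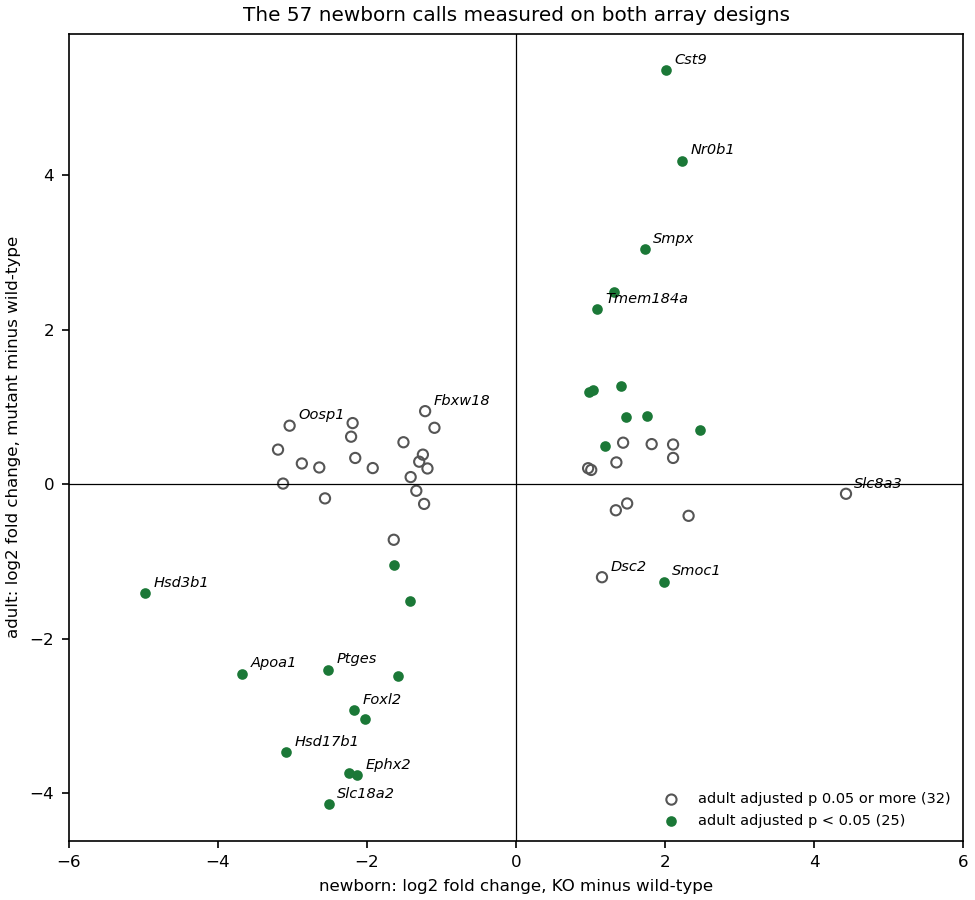
Newborn log2 fold change (KO minus wild-type, horizontal) against adult log2 fold change (Foxl2 flox/flox x CreEBD mutant minus wild-type, vertical) for the 57 newborn calls measured at both ages. Filled points passed the adult threshold; 12 lie in the upper right, 12 in the lower left and 1, Smoc1, in the lower right.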

How the data were processed

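The 4 P3 arrays hold linear probe set intensity, which the authors made with MAS5, per the submitters' processing notes; array build and labelling platform were not settled by the labels. The adult arrays hold log2 values that the authors made with RMA in Affymetrix Expression Console, per the same notes. Of 45101 P3 probe sets, 34958 named 1 gene, 932 several and 9211 none. Here, log2(signal + 16) of the brightest probe set per gene was fitted with limma 3.58.1 (R 4.3.3), with an intensity trend, on the 4 arrays alone. The script was tested on simulated data. The adult fit used all 8 adult arrays, which share 1 estimate of the spread. The labels number the replicates but do not pair them. Over genes, WT1 minus WT2 correlated with KO1 minus KO2 at r = 0.042. This single value over all genes cannot exclude a batch shared by same-numbered arrays. The text names the 20 largest rises and 20 largest falls past the threshold, leaving out predicted genes, the list members that passed, and for other lists those with the largest changes; further called genes are named more briefly and were chosen after their values were seen. The members and lists were chosen with earlier results of these data known. Each array is 1 pool, and the number of arrays limits the precision. No protein sequences were used here.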

Additional observations from a re-analysis of the deposited data

Results flagged for a closer look

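3 called genes had newborn groups that did not overlap in one direction and adult groups that did not overlap in the other. Newborn groups did not overlap in 19.3% of all genes upward and 19.7% downward. The share of all genes with opposite directions at the 2 ages is not given here. Of the 3 genes, only Smoc1 passed the adult threshold. The difference between the ages was not tested. Smoc1 was 1.98 ± 0.13 higher in newborn KO ovaries and changed by -1.26 ± 0.14 in the adult mutant (limma adjusted p = 0.000197), where the log2 values were 9.54 and 9.14 in wild-type and 8.13, 8.12 and 7.99 in the mutant. Oosp1 changed by -3.04 ± 0.20 in the newborn and by 0.76 ± 0.23 in the adult (limma adjusted p = 0.0508), with adult log2 values of 4.28 and 3.33 against 4.47, 4.63 and 4.58. Fcgr2b was 1.34 ± 0.15 higher in the newborn and changed by -0.34 ± 0.14 in the adult (limma adjusted p = 0.128). The array designs, the alleles and the ages differ together in this contrast and cannot be told apart.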

How the results depend on the processing

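All 59 called genes kept their sign under all 12 refits. As their groups did not overlap, only averaging probe sets, quantile normalization and median centring could have changed a sign. The main counts were 25 higher and 34 lower. Fitting only genes with a signal of at least 100 on 2 or more arrays gave 95 and 93 among 13508 genes, taking the mean of all probe sets of a gene gave 9 and 13, and the fit without an intensity trend gave 0 and 0. With the replicate block, limma called 153 higher and 152 lower. Whether same-numbered arrays share a batch is not stated in the labels. Leaving out 1 array gave 0 to 14 higher and 0 to 8 lower. A pseudocount of 1 or 64, quantile normalization, median centring and an added 2-fold minimum kept both counts within 1.5 times. The Foxl2 change was -1.27 (adjusted p = 0.23) as the mean of its probe sets and -2.18 (adjusted p = 0.15) without the trend; leaving out 1 array gave -2.30 to -2.05, with adjusted p from 0.0854 to 0.333. The granulosa median was -0.37 as the mean of probe sets. Leaving out 1 array, the Sertoli median ran from -0.065 to 0.13 and the egg coat median from -1.06 to -0.78. The adult count was 3232, and 1731 with the 5 ovaries fitted alone. The causes were not tested.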
